A study of Mus musculus with 5 samples.

Results

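T cells of the mouse liver were picked from droplet single-cell RNA data by their own transcripts. A barcode counted as a T cell when it had at least 1000 unique molecular identifiers (UMIs, each standing for 1 captured transcript), at least 500 genes, under 30% mitochondrial UMIs, at least 2 of the 3 genes Cd3d, Cd3e and Cd3g, and no UMI of the B cell genes Cd79a and Cd79b. The rule found 1378 T cells among 104143 barcodes past the limits on UMIs, genes and mitochondrial share. All mice were of the C57BL/6J strain, and there was 1 library per group. The groups were mice at postnatal day 14 (P14) and adults labelled as control (age in weeks not given; neither has a treatment label), and 3 sets of adults that lost most of their liver by surgery (PHx, partial hepatectomy) at 8 weeks of age and were sampled 24 h, 48 h or 96 h later. Where 5 values follow each other without labels, they stand for P14, control, 24 h, 48 h, then 96 h. The liver was dissociated by perfusion and dead cells were removed before loading, so the cells are those that survived this treatment. How many animals went into a library, and their sex, the labels do not say. The protocol text also places the control among the operated mice, against its title and source, and it was treated as a control.

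A T cell recognises antigen through a receptor whose αβ or γδ chains signal through the CD3 proteins. CD4 marks helper T cells and CD8 marks cytotoxic T cells. The mouse liver is known for many natural killer T (NKT) cells, αβ T cells that carry receptors of natural killer (NK) cells such as NK1.1, the product of Klrb1c, and that patrol the sinusoids with the chemokine receptor CXCR6. Naive T cells recirculate between blood and lymph nodes with receptors such as CCR7 and S1PR1.

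The rule gave 52, 581, 211, 382 and 152 T cells in the 5 libraries. For each B cell (Cd79a and Cd79b detected, no Cd3 gene) there were 0.5, 3.16, 2.45, 1.15 and 0.454 T cells. These are ratios of captured cells and were not tested. A share of all cells is not given, because 67862 barcodes of the adult control passed the limits, most of them at the depth of its empty droplets. Free RNA alone was expected to give at most 1.97 barcodes that meet the rule (adult control). Median depth was 8306.5, 6301, 4760, 6260.5 and 6714 UMIs per T cell, lowest at 24 h. The T cells held between 641920 (P14) and 3947091 (adult control) UMIs in all, so P14 values rest on the fewest counts. Free RNA from broken cells made up an estimated 7.93% (48 h) to 22.5% (adult control) of T cell UMIs and was subtracted from summed levels. Of the T cells, 31 shared their barcode sequence with a barcode of another library and none shared it with a T cell.

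Most members carried receptor genes of T cells. All 3 Cd3 genes were detected in 1175 cells and exactly 2 in 203, and these genes chose the members. A constant gene of the αβ receptor (Trac, Trbc1 or Trbc2), which the rule did not use, had a UMI in 94.2% of the P14 T cells and in 97.2% to 99.2% of those of the adult libraries. Just inside the threshold, in cells with exactly 2 Cd3 genes, the share was 62.5% in P14 and 89.4% to 95.2% in the adult libraries. Just outside it, 1080 barcodes with 1 Cd3 gene had shares of 7.17% (adult control) to 37.1% (48 h). A further 93 barcodes had the Cd3 genes together with Cd79a or Cd79b and were left out. Only 15 of the 1378 cells had neither αβ nor γδ constant genes.

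RNA of other cell types was present, in a few cells or spread over many, depending on the list and the library. By 3 or more markers of B cells, myeloid cells, neutrophils or endothelial cells, 26 T cells stood out, 3, 4, 7, 12 and 0 by library. The summed neutrophil list (S100a8, S100a9 and others) ranged from 27.7 CPM (depth-scaled counts with mitochondrial genes left out and free RNA subtracted) at 96 h to 4461 CPM at 48 h. The 10 richest cells held 66.7% to 100% of its UMIs in each library. The haemoglobin and other erythroid genes ranged from 4.95 CPM in P14 to 10924 CPM at 24 h, with 87.5% to 98.8% of UMIs in 10 cells. The myeloid list reached from 16.2 CPM in P14 to 294 CPM at 48 h, and Adgre1, Clec4f, Cd5l and C1qa were at 0 UMIs in the T cells of P14, of 24 h and of 96 h. The B cell list lay between 171 CPM (96 h) and 434 CPM (24 h). Its 10 richest cells held 66.7%, 9.88%, 81.3%, 54.2% and 40.4% of its UMIs, and in the control 366 of 581 cells had some. Hepatocyte genes, which scaled the free RNA, were left at 6582, 460, 700.03, 262 and 763 CPM after subtraction, highest in P14, where 10 cells held 78.6% of their UMIs. The defining B cell gene Ms4a1 was at 0 UMIs in all 5 libraries, and Cd79a and Cd79b were at 0 by the rule. Platelet genes were at or below 2.42 CPM. No caller of doublets was run, and values without the 26 cells are given where they differ.

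The subsets were read as the share of T cells with at least 1 UMI of a gene after each cell was thinned to 2000 UMIs, which left out 32 cells. Intervals are exact 95% binomial intervals and cover counting error only. Cd8a was found in 21.6% (11.3% to 35.3%), 14.8% (12.02% to 18.01%), 14.4% (9.88% to 20.1%), 20.6% (16.6% to 25.1%) and 22.4% (16.02% to 29.8%). The intervals of all 5 libraries overlapped. Unthinned, the shares were 40.4%, 25.8%, 21.8%, 34.0% and 43.4%, and the interval at 96 h (35.4% to 51.7%) lay above that of the control (22.3% to 29.6%). Cd4 was found in 3.92% (0.478% to 13.5%), 6.81% (4.88% to 9.19%), 3.98% (1.73% to 7.69%), 7.32% (4.88% to 10.5%) and 7.89% (4.15% to 13.4%), intervals that overlapped too. Cd4 transcripts are sparse, so these shares are lower bounds on the CD4 cells. No more than 0.625% of B cells in a library had Cd4 and no more than 0.552% had Cd8a after the same thinning. Before thinning, the median depth of B cells was 3332.5 to 8383.5 UMIs.

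Klrb1c differed between libraries beyond counting error. It was found in 29.4% (17.5% to 43.8%), 18.2% (15.1% to 21.6%), 29.9% (23.6% to 36.7%), 16.3% (12.6% to 20.4%) and 5.26% (2.30% to 10.1%). No B cell of any library had a Klrb1c UMI after thinning. The interval at 24 h lay above those of the control and of 48 h, and the interval at 96 h lay below all the others. Unthinned, the shares were 48.1%, 31.5%, 45.0%, 29.6% and 11.8%. With 1 library per group, differences between libraries and the time after surgery cannot be told apart.

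**Figure D1:**
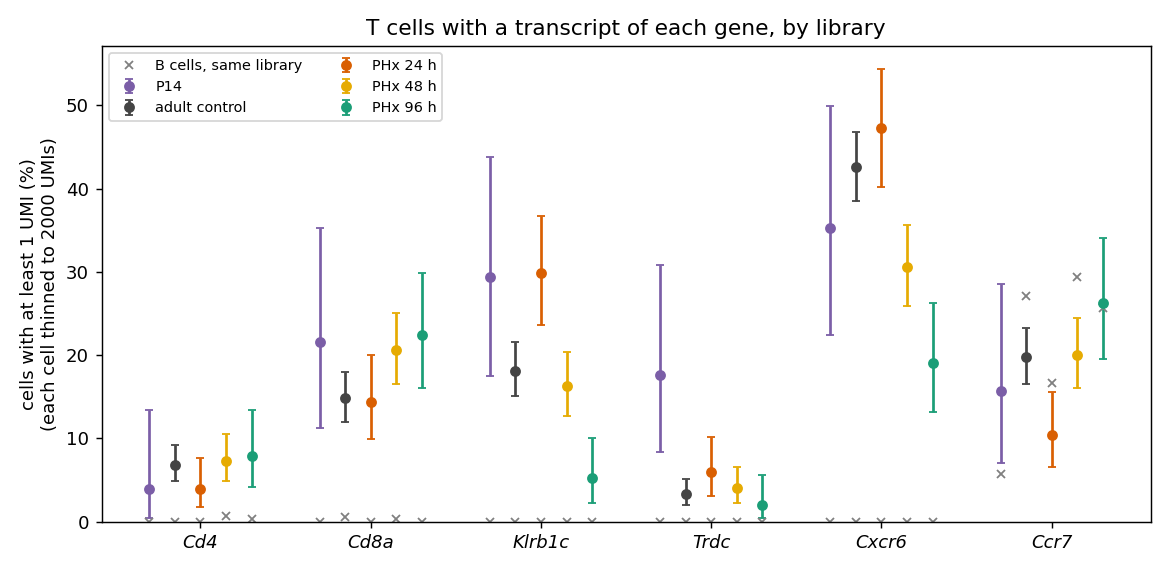
Share of T cells with at least 1 UMI of each gene (vertical axis, %), each cell thinned to 2000 UMIs, by library, with exact 95% binomial intervals; crosses are B cells of the same library. Klrb1c is at 29.9% at 24 h and 5.26% at 96 h, whereas the Cd8a intervals of the 5 libraries overlap.

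Of the Klrb1c-positive cells, 17 of 25, 145 of 183, 75 of 95, 88 of 113 and 11 of 18 had no UMI of Cd4 or Cd8a at full depth. Of all T cells, 27 of 52 in P14 and 331 of 581 in the control had none either. Sparse transcripts can be missed, so these are not counts of cells that lack both co-receptors. Among cells with Cd4 and no Cd8a, Klrb1c was found at full depth in 31 of 100, 13 of 22, 20 of 64 and 6 of 28 (control, then by time after PHx). Among cells with Cd8a and no Cd4 it was found in 6 of 145, 7 of 46, 4 of 129 and 1 of 66. In P14, Klrb1c was found in 8 of 21 Cd8a-positive cells and in 0 of 4 Cd4-positive cells. The exact binomial interval of the first share, 18.1% to 61.6%, overlapped that at 24 h, 6.34% to 28.9%, and not those of the other 3 libraries, and it covers counting error only. An αβ constant gene was detected in 98.9% to 100% of the Klrb1c-positive cells of each library.

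Trdc and Ncr1 had their highest shares in P14. Trdc, the δ chain constant gene, had a UMI in 17.6% of thinned P14 T cells (8.40% to 30.9%) against 3.32% of the adult control (2.01% to 5.13%) and 5.97%, 4.07% and 1.97% of the libraries after PHx. Of the other 4 intervals, only that of P14 lay clear of the control's. At full depth 13 of the 15 Trdc-positive P14 cells also had Klrb1c, against 9 of 23 in the control and 0 of 5 at 96 h. An αβ constant gene was also detected in 14 of the 15 and in 80% to 100% of Trdc-positive cells of the adult libraries. Any UMI of Trac, Trbc1 or Trbc2 counted here, so whether these are γδ or αβ cells cannot be told from these genes. Ncr1, which encodes the NK receptor NKp46, was in 17.6% of thinned P14 T cells and in 0.698% to 1.36% of the adult ones. At full depth 12 of the 25 Klrb1c-positive P14 cells had Ncr1, against 1 to 7 cells in each adult library. NK cells, too, can carry transcripts of Cd3 and of receptor constant genes, and the 2 kinds of cell cannot be told apart from these genes. The summed list of NK cell genes (Klrb1c, Ncr1, Eomes and others) was at 625, 310, 403, 291 and 145 CPM.

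Few cells of other helper classes were seen. Foxp3, the regulatory T cell factor, was in 1 to 3 thinned cells per library, and Il17a, a cytokine of type 17 cells, was in 0 of 573 thinned control cells, which allows up to 0.524% of cells with a UMI at this depth and sets no limit on cells that express it. Zbtb16, the factor of innate-like T cells, was in 0 of 51 thinned P14 cells and in 2.44% to 3.32% of the adult ones, against 2.21% of B cells in the control. At full depth it was in 58 of 581 control T cells and 6 of 184 control B cells.

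Levels were then compared between libraries on UMIs summed over T cells. With 1 library per group no test between conditions exists. A gene is described as higher or lower when its ratio to the adult control was at least 2-fold on the log2(CPM + 10) scale, which understates the change of low genes. A gene was measured when its higher library passed a filter on level, UMIs and free RNA, so a gene that passed in 1 library only had to differ. List counts and medians are therefore given over every list gene with a UMI, with no filter, where any measured member passed in 1 library only. They are read beside the same over all genes with a UMI, most of which are low and lie near 0. All 4 comparisons share the adult control, which also bears another lane code than the other libraries in the labels, so an effect of that lane and one of the group cannot be told apart. Brackets after a level give its 95% Poisson interval. Brackets after a log2 ratio pair opposite ends of the intervals of its levels, so they are wider than a 95% interval of the ratio. Both are for counting error only.

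At 24 h, 6 of 20 genes induced by interferon were lower and none higher, 19 lay below 0, and the median log2 ratio was -0.56. Of all 14868 genes with a UMI, 0.673% were lower and 0.975% higher, with a median of -0.03. Of 2305 genes measured, 0.824% were lower and 1.74% higher by 2-fold. Those are 19 and 40 genes. With free RNA neither subtracted nor used as a filter, which lets in genes rich in free RNA, the balance reversed, with 255 lower and 62 higher. Of 15 measured interferon genes 4 were lower, Isg15, Ifit1, Irf7 and Gbp2, all of which passed the filter in the control only. None of the 10 that passed in both libraries was past 2-fold. Isg15, a ubiquitin-like antiviral protein, was at 24.1 (12.1 to 42.4), 78.3 (68.1 to 89.5), 14.3 (6.77 to 25.2), 36.6 (29.1 to 45.4) and 37.2 CPM (24.97 to 52.7). The control was the highest library, and its interval met none of the others. The log2 ratio at 24 h was -1.86 (-2.57 to -1.15). A single control cell held 20% of the control's Isg15 UMIs, and 1 cell held 11.7% for Ifit1 and 9.58% for Gbp2.

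Ifit1, an RNA-binding antiviral protein, stood at 8.94, 51.7, 13.6, 31.2 and 28.1 CPM. Irf7, a transcription factor of the interferon response, was at 46.2, 66.5, 23.9, 47.4 and 50.2 CPM. Gbp2, a guanylate-binding protein, was at 32.5, 57.4, 20.6, 34.7 and 38.9 CPM. For these genes too the control was highest, and of the adult libraries 24 h was lowest. Their log2 ratios at 24 h were -1.39 for Ifit1, -1.18 for Irf7 and -1.14 for Gbp2. With a pseudocount of 50 CPM none of the 19 lower genes at 24 h passed 2-fold, those of the interferon list, Ccr7, Lat and Cd247 included, whereas 19 genes were higher. At 48 h and 96 h, 1 of the 20 list genes was lower, with medians of -0.35 and -0.37. Of all genes with a UMI at 48 h, 0.532% were higher and 0.434% lower.

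Among the Klrb1c-negative T cells alone the 24 h median was -1.07, with 10 of 20 list genes lower, 1 of them among the 8 that passed the filter in both libraries. Over all genes with a UMI in those cells 1.4% were lower and 1.79% higher, with a median of -0.03. Median depth was lowest at 24 h, and its part in the result was not tested. Class I antigen presentation genes stayed within 2-fold after PHx. All 9 measured ones lay below 0 at 24 h, with a median of -0.52, and H2-K1 was at 4097 CPM in the control and 2425 at 24 h. This was not particular to 24 h. All 9 measured lay below 0 at 48 h (median -0.36) and in P14 (-0.41) as well, and 9 of 11 at 96 h (-0.16). In P14 H2-Q7 was lower by 2-fold (1275 to 518 CPM). Reads of H2-K1, H2-D1 and H2-Q7 may be shared, as these genes are closely related.

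**Figure D2:**
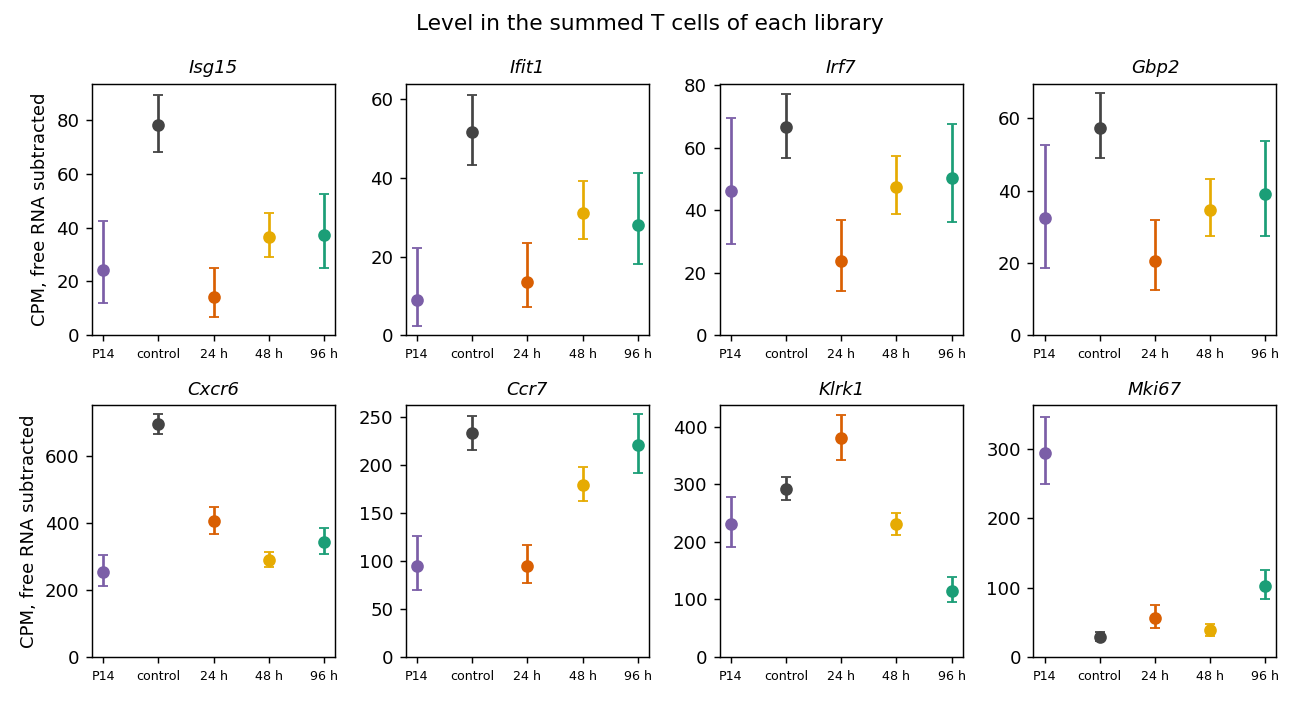
Level of 8 genes in the summed T cells of each library (CPM after free RNA was subtracted), with 95% Poisson intervals of the counts. The interferon genes Isg15, Ifit1, Irf7 and Gbp2 are highest in the adult control, and Isg15 is at 14.3 CPM at 24 h; Mki67 is at 295 CPM in P14.

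The start-site regions of the 4 measured interferon-list genes that were lower at 24 h are shown. All 4 passed the filter in the control only. They are taken from RefSeq (GRCm38.p6), 250 bases before to 50 after the start. Capitals mark matches to GAAANNGAAA on either strand, the core of the interferon-stimulated response element, overlapping matches joined.
Isg15 (chr4:156200769-156201068, minus strand): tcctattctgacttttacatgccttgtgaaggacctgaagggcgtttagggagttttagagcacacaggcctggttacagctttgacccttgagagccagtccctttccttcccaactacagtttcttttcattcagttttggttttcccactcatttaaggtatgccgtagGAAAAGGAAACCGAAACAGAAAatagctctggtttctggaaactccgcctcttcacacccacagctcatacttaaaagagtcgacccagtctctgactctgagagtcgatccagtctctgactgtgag
Ifit1 (chr19:34640639-34640938, plus strand): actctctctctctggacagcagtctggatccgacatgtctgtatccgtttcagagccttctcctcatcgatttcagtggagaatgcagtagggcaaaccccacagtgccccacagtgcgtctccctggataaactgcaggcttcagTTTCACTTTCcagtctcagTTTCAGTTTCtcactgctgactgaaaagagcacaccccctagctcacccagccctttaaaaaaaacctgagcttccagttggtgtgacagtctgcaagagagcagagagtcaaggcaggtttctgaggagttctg
Gbp2 (chr3:142620413-142620712, plus strand): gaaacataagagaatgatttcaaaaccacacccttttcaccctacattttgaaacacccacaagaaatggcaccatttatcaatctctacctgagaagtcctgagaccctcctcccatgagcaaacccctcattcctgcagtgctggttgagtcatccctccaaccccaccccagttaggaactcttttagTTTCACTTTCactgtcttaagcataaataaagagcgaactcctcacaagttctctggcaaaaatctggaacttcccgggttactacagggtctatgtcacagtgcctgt
Irf7 (chr7:141266375-141266674, minus strand): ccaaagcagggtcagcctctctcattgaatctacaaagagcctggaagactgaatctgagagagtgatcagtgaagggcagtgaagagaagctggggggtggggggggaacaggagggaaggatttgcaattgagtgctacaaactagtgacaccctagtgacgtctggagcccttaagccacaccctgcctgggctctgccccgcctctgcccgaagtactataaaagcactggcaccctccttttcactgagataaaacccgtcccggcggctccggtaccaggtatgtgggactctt
The motif was found in 3 of these 4 regions, 3 times in Isg15, 2 times in Ifit1 and 1 time in Gbp2, and not in Irf7. Of the 20 list genes, 13 had an entry in the table and 8 of those had a match in at least 1 of their entries. Of all 32851 regions of this length, 3.44% had one. A match is a description of letters and not of binding. The list was made of genes known to be induced by interferon, so these shares say nothing on what changed at 24 h.

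Ccr7, Lat and Cd247 were also lower at 24 h. Ccr7 was at 95.03, 233, 95.1, 180 and 221 CPM, lowest at 24 h and in P14, a log2 ratio at 24 h of -1.21 (-1.59 to -0.84). It was the only 1 of 11 measured naive-type genes past 2-fold. The list's median was -0.45, and Il7r, the interleukin-7 receptor, was at 540 CPM in the control and 577 at 24 h. Among 16 receptor-signalling genes, Lat, the adaptor that links the receptor to its effectors, was the 1 lower gene (462 to 210 CPM), and 14 lay below 0, with a median of -0.50. Cd247, the receptor's ζ chain, went from 159 to 71.3 CPM. Other genes among the 8 lowest were Dtx1, a Notch pathway ligase (96.4 to 28.9 CPM), the phosphatase gene Ptp4a3 (114 to 41.4 CPM) and Art2b, an ADP-ribosyltransferase of T cells (122 to 45.5 CPM).

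Single genes of the immediate early, effector and NK receptor lists were higher at 24 h. Fos, an AP-1 subunit, was at 12.5, 22.1, 88.02, 52.5 and 15.1 CPM, highest at 24 h, and had a UMI in 11.9% of thinned T cells at 24 h against 2.62% in the control. Dusp1, a MAP kinase phosphatase, was at 46.2 and 131 CPM in control and 24 h. These 2 were the higher ones of 19 immediate early genes, whose median was -0.05. Both passed the filter at 24 h only. Fos was in 6.08% of B cells in the control and 9.52% at 24 h, intervals that overlapped (3.07% to 10.6% and 4.20% to 17.9%). On the NK receptor list, 3 of 9 measured genes were higher: Fcer1g and Tyrobp, signalling adaptors, at 270.4 and 231 CPM against 76.9 and 92.1, and the receptor gene Klrc2 at 251 against 112. Without the cells that carried markers of another class, Tyrobp had a log2 ratio of 0.46 in place of 1.24, and Fcer1g 1.21 in place of 1.69. Both adaptors are also expressed by myeloid cells. The chemokine gene Ccl4 (23.1 to 76.4 CPM) and the granzyme gene Gzma (171 to 391 CPM) were the 2 higher ones of 17 effector genes, of which 1 was lower and whose median was -0.13, and each was found in few cells: Gzma had a UMI in 14 of the 211 cells at 24 h.

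The 8 largest ratios at 24 h came from single cells. They were those of Cd74, H2-Eb1, H2-Ab1 and H2-Aa, which present antigen on class II molecules, and of S100a8, Wfdc17, Ifitm1 and Retnlg, which are known from neutrophils or myeloid cells. For each, 91.6% to 100% of its UMIs at 24 h lay in 1 cell. Without the cells that carried markers of another class, Cd74 had a log2 ratio of 0.59 in place of 4.76. When genes with over 25% of their UMIs in 1 cell were set aside, 19 genes remained higher and 19 lower at 24 h, and the higher ones included Fos, Dusp1, Lgals3, S100a6 and Maf.

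**Figure D3:**
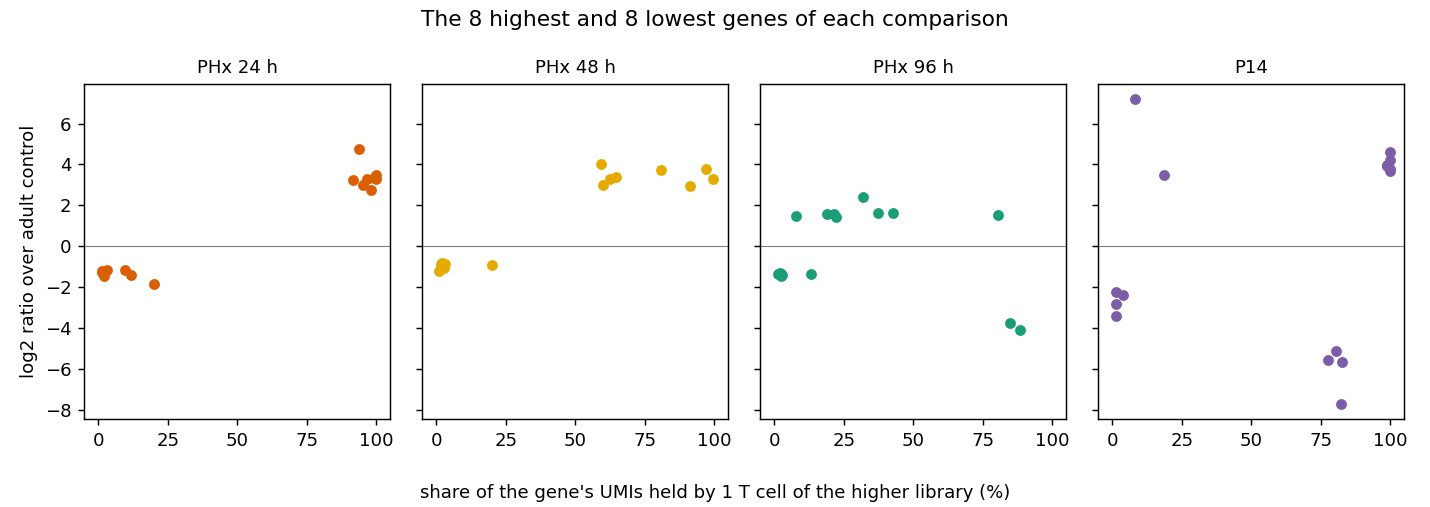
Log2 ratio over the adult control (vertical axis) of the 8 highest and 8 lowest genes of each comparison, against the share of the gene's UMIs held by a single T cell of the library where it was higher (horizontal axis, %). The 8 highest genes at 24 h lie between 91.6% and 100%, and those at 48 h between 59.2% and 99.5%; the 8 lowest genes at 24 h lie at or below 20%.

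At 48 h, of 2305 genes, 0.217% were lower and 1.04% higher by 2-fold. Both directions together, these were the fewest of the 4 comparisons, though 96 h had fewer higher genes (0.875%). The share of free RNA was lowest at 48 h. With free RNA neither subtracted nor used as a filter that order turned: 435 genes were past 2-fold at 48 h, against 317 at 24 h and 241 at 96 h. The balance at 48 h turned too, from 24 higher and 5 lower to 47 and 388. Cxcr6, the sinusoidal homing receptor, was lowest in ratio. It was at 255, 696 (666 to 727), 406, 291 (269.8 to 314) and 345 CPM, a log2 ratio at 48 h of -1.23 (-1.40 to -1.06). The control's level was above that of every other library, whereas the share of cells with a Cxcr6 UMI was 42.6% in the control and 47.3% at 24 h, so no order is read from the shares of these libraries. Klrb1c-negative cells alone gave -1.16 at 48 h. Asb2, Abcb9 and Rcbtb2 were also lower (214 to 98.9 CPM for Rcbtb2), as was the immunoglobulin gene Ighm (241 to 114 CPM), a B cell marker named after its value was seen. Cd74, the other measured gene of the B cell list, was among the highest at 48 h.

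Zfp36, which encodes an RNA-destabilising protein (36.0 to 86.1 CPM), and Cxcr4, the CXCL12 receptor (25.6 to 65.1 CPM), were the list genes higher at 48 h that many cells carried: 133 and 107 of 382 cells had a UMI. Both passed the filter at 48 h only. Zfp36 was the 1 higher gene of 19 immediate early genes (median 0.05), and Cxcr4 the 1 of 10 induced by glucocorticoids (median 0.26). Socs3, an inhibitor of cytokine signalling, went from 39.5 to 131 CPM and was chosen for mention after its value was seen. The 8 largest ratios belonged to S100a8, S100a9, Ngp, Retnlg, Lyz2, Stfa1, Cd74 and H2-Eb1, with 59.2% to 99.5% of UMIs in 1 cell. S100a8 had a log2 ratio of 0.00 in place of 4.04 without the 26 cells. With genes that had over 25% of their UMIs in 1 cell set aside, 4 genes remained higher and 5 lower.

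At 96 h, 5 of 12 mitosis genes were higher, and Klrb1c with 3 of 18 NK receptor genes was lower. Of 2287 genes, 0.875% were higher and 1.18% lower by 2-fold. Of all 14678 genes with a UMI, 0.838% were higher and 0.559% lower, with a median of -0.04, and the median of the 12 mitosis genes was 0.94. Of 9 measured mitosis genes, 6 passed the filter at 96 h only, and of the 3 that passed in both libraries 1, Top2a, was higher. In Klrb1c-negative cells the pattern was not particular to 96 h. There 4 of the 12 were higher at 24 h (median 0.86) and 3 at 96 h (0.72), against 1.79% and 1.02% of all genes. At 48 h none was higher and 2 were lower (-0.38). In all T cells none of the 12 was past 2-fold at 24 h or 48 h, with medians of 0.50 and -0.08. Mki67, a proliferation marker, was at 295, 28.5 (22.6 to 35.4), 56.8, 38.5 and 103 CPM (83.3 to 125.5), so 96 h was the highest adult library. Top2a, which untangles DNA, was at 475, 57.4, 101, 74.9 and 192 CPM. These levels rested on few cells. At least 3 mitosis genes were detected in 9 of 52, 13 of 581, 7 of 211, 12 of 382 and 11 of 152 T cells. After thinning the shares were 5.26% (2.30% to 10.1%) at 96 h and 1.40% (0.605% to 2.73%) in the control, intervals that overlapped. The replication list had 1 of 15 genes higher at 96 h, Tyms, which makes thymidylate (22.99 to 63.4 CPM). Of the 11 cells, 2 had Cd8a or Cd8b1, 3 had Cd4, 1 had Klrb1c and 3 had Gzma. Over all 152 T cells at 96 h, 50.7% had Cd8a or Cd8b1, 18.4% Cd4, 11.8% Klrb1c and 5.26% Gzma.

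Rbm3, a cold-inducible RNA-binding protein, was at 344 CPM in the control, 992 at 96 h and 1385 in P14, and had a UMI in 151 of the 152 cells at 96 h, with 7.69% of its UMIs in the richest cell. Hist1h2ap, a replication-dependent histone, had the largest ratio at 96 h (54.2 to 332 CPM, with 32.1% of its UMIs in 1 cell). Gzma was at 171 and 553 CPM in control and 96 h, but only 8 cells at 96 h had a UMI and 1 of them held 42.6%. Haemoglobin Hba-a2 was higher as well, with 80.5% in 1 cell.

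Among the lower genes at 96 h, Klrb1c was at 190, 124, 229, 120.1 and 38.1 CPM. Klrk1, which encodes the activating receptor NKG2D, was at 232, 293, 380, 231 and 115 CPM, and 96 h was the lowest library for both. The lower NK receptor genes were Klrk1, Klrc1 and Tyrobp, 14 of the 18 lay below 0, and the median was -0.49. Tyrobp is an adaptor of NK and myeloid cells alike. Of 11 residency genes none passed 2-fold, 8 lay below 0, and the median was -0.26. Cxcr6 was among the lower side and fell just short of the cut, at 696 CPM in the control and 345 at 96 h. Klrk1 had a log2 ratio of -1.27 in all T cells and -0.94 in Klrb1c-negative ones. The effector genes Fasl (70.0 to 27.5 CPM) and Xcl1 (293 to 126 CPM), and Txnip, an inhibitor of thioredoxin (577 to 241 CPM), were lower. Of 17 effector genes 2 were lower and 1 higher, with a median of -0.38, and Fasl passed the filter in the control only. Of 10 genes induced by glucocorticoids 3 were lower, Txnip among them, and none higher, with a median of -0.40. Klrb1c-negative cells alone gave 23 genes past 2-fold at 96 h in place of 47. S100a8 and S100a9 also stood among the 8 lowest genes, with 84.8% and 88.4% of their control UMIs in 1 cell. Naive-type genes stayed within 2-fold (12 genes, median 0.09), as did all 16 receptor-signalling genes, each below 0 with a median of -0.49. At 48 h and in P14, 15 of these 16 lay below 0 too, with medians of -0.31 and -0.52.

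**Figure D4:**
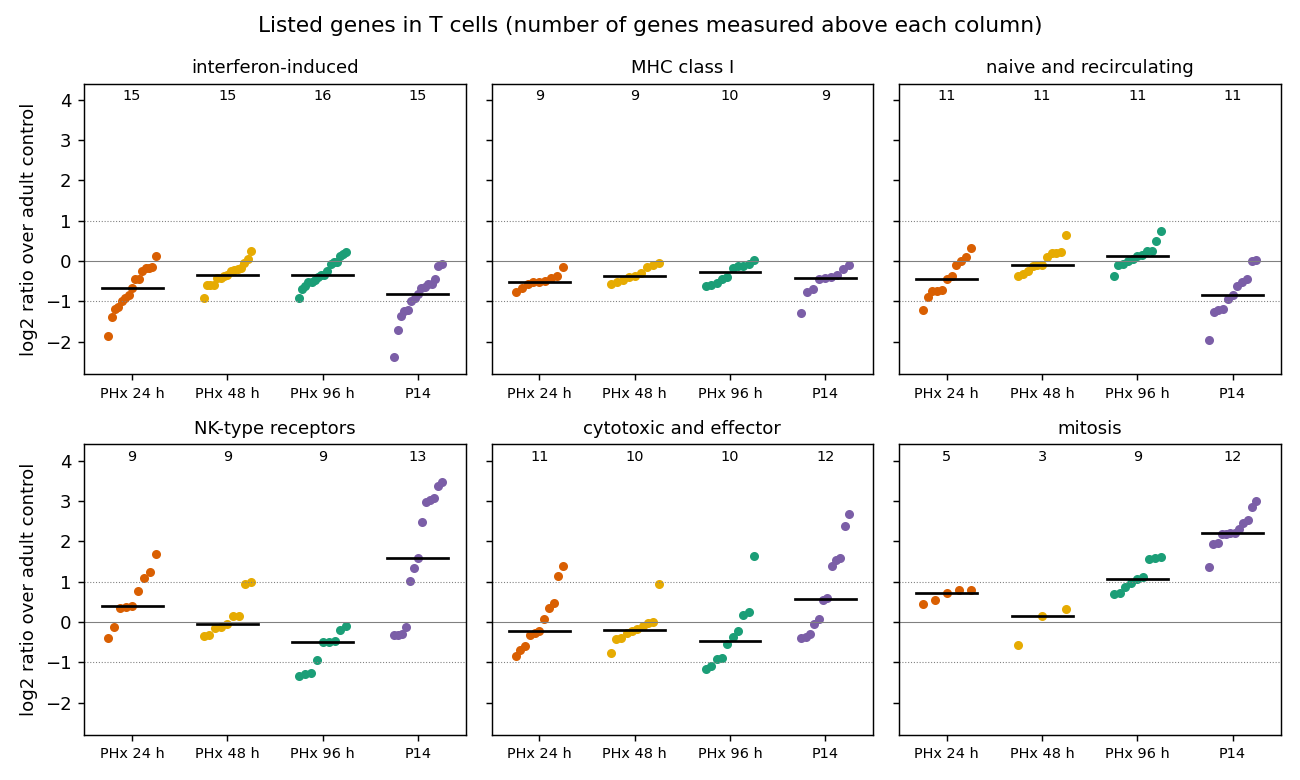
Log2 ratio over the adult control of each measured gene of 6 lists in 4 comparisons; black bars are medians, dotted lines mark 2-fold, and the number above a column is the number of genes measured, those that passed the filter in 1 library only included. The interferon list has medians of -0.67 at 24 h and -0.80 in P14, and the mitosis list has a median of 2.20 in P14.

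P14 T cells had the most genes past 2-fold: of 2766 genes, 6.54% were higher and 1.77% lower. Of these 2766, 695 passed the filter in P14 only and 212 in the control only. Of the 1859 that passed in both libraries, 54 were higher and 21 lower. P14 also had the fewest T cells (52) and UMIs (641920), and the part of this in the counts was not tested. The median of all measured genes was 0.17, and another scaling (TMM, the trimmed mean of M-values) moved it to -0.09 and the counts from 181 higher and 49 lower to 112 and 104. With free RNA neither subtracted nor used as a filter the balance turned to 188 higher and 288 lower. The named genes below kept their direction under that scaling. Of all 14844 genes with a UMI, 3.77% were higher and 2.1% lower, with a median of 0.01. All 12 mitosis genes were higher, as were 8 of 15 replication genes, with medians of 2.20 and 1.06. Of the 12 and 11 measured, 9 and 8 passed the filter in P14 only. Of the 3 in each list that passed in both libraries, 3 and 2 were higher. At least 3 mitosis genes were detected in 11.8% of thinned P14 T cells (4.44% to 23.9%). Of the 9 such cells at full depth, 6 had Cd8a or Cd8b1, 4 had Klrb1c and 0 had Cd4, against 42.3%, 48.1% and 7.69% of all 52 P14 T cells.

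NK-type receptors and some effector genes were higher in P14. Of 18 NK receptor genes 10 were higher and none lower, with a median of 1.08, and of the 9 that passed the filter in both libraries 5 were higher. Fcer1g was at 884 CPM in P14 (804 to 970) and 71.3 to 270 CPM in the adult libraries, all of which were lower. Klra5, a Ly49 family receptor, was at 158 CPM in P14 and 5.20 to 19.6 CPM in the adult libraries, and 11 of the 52 P14 cells had it. Reads of the closely related Klra genes may be shared. Of 17 effector genes 5 were higher and none lower, with a median of 0.06. Gzmb, a granzyme, was at 825 CPM against 278 in the control. Gzma was at 928 against 171 CPM and the chemokine gene Ccl5 at 6627 against 2186 CPM. Trdc was at 295 CPM in P14, 53.3 in the control and 21.1 to 101 after PHx. Without Klrb1c-positive cells its log2 ratio in P14 was -0.73 in place of 2.27, whereas that of Tyrobp stayed at 3.02 against 3.01. Trdc did not stand for its list there: of 6 γδ receptor genes with a UMI in Klrb1c-negative cells, 3 were higher and 5 lay above 0, with a median of 0.89. Of all genes in those cells 3.59% were higher. In all T cells 2 of 7 were higher and all 7 lay above 0, with a median of 0.84. In Klrb1c-negative cells, 9 of 18 NK receptor genes were higher in P14 and 3 lower, with a median of 0.98, and none of the 3 that passed the filter in both libraries was past 2-fold. Of 17 effector genes in those cells 4 were higher and 1 lower, with a median of -0.35, and 1 of the 7 that passed in both libraries was higher. Ikzf2, which encodes Helios (55.8 to 247 CPM), Tnfrsf9, an activation receptor (16.3 to 91.1 CPM), and Sox4, a factor of immature cells (1.63 to 84.9 CPM, 7 P14 cells, 1 of which held 67.4%), were also higher.

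Some genes of recirculating T cells and some interferon-induced genes were lower in P14. Naive-type genes had a median of -0.72, with 4 of 12 lower: Ccr7, Il7r (540 to 220 CPM), Dapl1 (236 to 53.5 CPM) and the gut-homing receptor Ccr9. In Klrb1c-negative cells 2 of the 12 were lower and none higher, with a median of -0.60. On the interferon list, in all T cells, 8 of 20 were lower, all 20 lay below 0, and the median was -0.91. Of the 10 that passed the filter in both libraries 3 were lower. Ly6a, the Sca-1 surface protein, was at 75.2, 431, 385, 340.0 and 297 CPM, lowest in P14, with a log2 ratio of -2.37 (-2.88 to -1.88). Lat, Cd28 and Thy1 were the lower ones of 16 receptor-signalling genes. The largest ratio was that of Xist, the RNA of the inactive X chromosome, at 1470 CPM in P14 and at most 0.430 CPM in an adult library. Eif2s3y, on the Y chromosome, was at 0 UMIs in P14 and 82.0 to 103 CPM in the adult libraries. The sex of the mice and their age therefore cannot be told apart in P14. Fabp4, Fbln2, Rspo3, Ptprb, Eln and Nts, known from vessel and stromal cells, stood among the 8 highest with 98.7% to 100% of their UMIs in 1 cell, and the 4 haemoglobin genes among the lowest had 77.8% to 82.7% of their control UMIs in 1 cell.

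The subsets could be tested against each other, because both sides of each contrast came from the same library and the libraries served as replicates. UMIs were summed per library and subset and tested with edgeR's quasi-likelihood test with the library as a block and Benjamini-Hochberg adjustment. The levels given for subsets are CPM without subtraction of free RNA and with mitochondrial genes kept in the total. Cd8a-positive cells were compared with Cd4-positive cells in the 4 adult libraries (386 against 214 cells). P14 had 4 Cd4-positive cells and was left out.

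Of 6508 genes, 2.66% were higher and 2.29% lower in Cd8a-positive cells at an adjusted p under 0.05. Cd8b1, which encodes the partner chain of CD8α, was at 848, 521, 673 and 586 CPM in Cd8a-positive cells (control, then by time after PHx), and at 9.04, 6.82, 4.71 and 15.5 CPM in Cd4-positive cells. Its log2 fold change was 6.53 ± 0.24 (SE, adjusted p = 2.623e-09, edgeR), higher in 4 of 4 libraries. Gzma was at 229, 524, 195 and 931 CPM against at most 5.16 CPM (log2 fold change 7.01, adjusted p = 3.692e-08, edgeR), also higher in 4 of 4. Few T cells had a Gzma UMI: 22 of 581, 14 of 211, 20 of 382 and 8 of 152 in these libraries. At 96 h a single cell held a large part of its UMIs, as given above. The sides did not overlap for either gene. Cd8a-positive cells were deeper in all 4 libraries, with medians of 7158, 6321, 7059 and 7280.5 UMIs against 6361, 4939.5, 6161.5 and 6400. Of other cell types' genes, 2 of 5 erythroid (Hbb-bt, Hba-a2) and 2 of 16 hepatocyte genes (Apoc1, Fabp1) were also higher in them. The median log2 fold changes of those lists were 2.87 and 0.40. With cells thinned to 2000 UMIs 1100 genes could be tested, and 58 were higher and 10 lower. The part of the other cell types' RNA in the contrast was not tested.

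Cytotoxic and effector genes were higher in Cd8a-positive cells for 10 of 17 tested, with a median log2 fold change of 1.19 against 0.01 for all genes. They included Ccl5, Prf1 (perforin), Eomes, a factor of effector and memory cells, Gzmk and Gzmm. Id2, an inhibitor of E proteins, and Fasl were the 2 lower ones. Of 12 naive-type genes 5 were higher, among them Dapl1, Il7r, Klf2 and Actn1, and none lower. Some of the 12 higher genes with the lowest adjusted p encode ribosomal proteins, such as Rps15a (0.57) and Rps20 (0.56), and had small log2 fold changes. Of these ribosomal genes, 4 did not pass without the library block. No list of ribosomal protein genes was counted.

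Of 8 cytokine genes tested, 3 were lower in Cd8a-positive cells and none higher: Cd40lg, Il4 and Ifng. Cd40lg, the ligand that helps B cells, was at 37.7, 47.8, 65.9 and 41.3 CPM in Cd4-positive cells and at most 1.70 CPM in Cd8a-positive ones (log2 fold change -5.65, adjusted p = 1.362e-04, edgeR). Il4 and Ifng had log2 fold changes of -5.82 and -2.39. Lower, too, were the transcription factor Maf (-3.65), the creatine kinase gene Ckb (-4.19), Ly6a (-1.59) and Cxcr6 (-2.17), each in 4 of 4 libraries. Of 7 regulatory-type genes 4 were lower and none higher. Klrb1c itself was lower (-2.71, adjusted p = 6.880e-06, edgeR), and the Cd4-positive side held more Klrb1c-positive cells, as given above. Among Klrb1c-negative cells, where 24 h had too few Cd4-positive cells, 136 genes passed in place of 322, and Cxcr6 (-1.55), Maf (-3.53), Cd40lg (-5.98) and Gzma (6.27) kept their direction and passed the threshold. Leaving out 96 h gave 134 genes.

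Klrb1c-positive cells were compared with Klrb1c-negative cells in all 5 libraries (434 against 944 cells). Of 8373 genes, 3.14% were higher and 3.61% lower. Median depths of the 2 sides were within a library 4578 against 5330.5 UMIs at 24 h and 7378 against 9186 in P14, and closer in the other libraries.

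Genes of recirculation were lower in Klrb1c-positive cells for 9 of 12 tested, with a median log2 fold change of -2.60. Klf2, the factor that keeps S1pr1 on, was at 79.9, 159, 110, 218 and 75.9 CPM in Klrb1c-positive cells. In Klrb1c-negative cells it was at 735, 1025, 729, 1136 and 1024 CPM. All 5 positive values lay below all 5 negative ones, and the log2 fold change was -3.03 ± 0.17 (SE, adjusted p = 3.440e-05, edgeR). Ccr7 (-5.97), Dapl1 (-6.37), S1pr1 (-2.53), Lef1 (-1.88) and Tcf7 (-2.67) were lower in 5 of 5 libraries. Cd8b1 (-4.63) was lower as well, and so were Itgae and Cd69 of the residency list.

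NK receptor genes were higher for 13 of 17 tested and lower for none, with a median of 1.97. Il2rb, the receptor chain for interleukins 2 and 15, was at 483, 722, 561, 818 and 872 CPM in Klrb1c-positive cells and 149, 186, 204, 213 and 195 in negative ones (log2 fold change 1.67 ± 0.12, SE, adjusted p = 7.441e-05, edgeR), with no overlap. Klrk1 (2.31), Klre1 (2.53) and Ncr1 (4.52) were higher in 5 of 5 libraries. The Ncr1 level in Klrb1c-positive cells was 223 CPM in P14 and 21.1 to 45.5 CPM in the adults. Gzmb (1.68), Cxcr3 (1.36) and Cxcr6 (1.82), both chemokine receptors, Rgs1 (1.65) and the integrin gene Itga1 (1.81) were higher in 5 of 5. Their lists were mixed. Of 17 effector genes 9 were higher and 2 lower (Gzmk, Gzmm). Of 5 chemokine receptor genes 3 were higher and 2 lower (Gpr183, S1pr4), and of 10 residency genes 5 were higher and 2 lower.

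Cytokine genes were higher for 6 of 10 tested: Ifng, Il4, Cd40lg, Tnfsf14, Tgfb1 and Tnf, while Tnfsf8 was lower. Ifng was at 36.6, 69.6, 101, 83.9 and 144 CPM in Klrb1c-positive cells against 2.93, 17.8, 18.6, 16.6 and 15.1. Il4 was at 65.4, 88.6, 49.8 and 83.4 CPM in the positive cells of the 4 adult libraries, against 10.5, 14.6, 4.83 and 7.57. P14 went the other way for Il4, at 3.33 against 11.7 CPM, which are 1 and 4 UMIs. The γ chain constant genes Tcrg-C1, Tcrg-C2 and Tcrg-C4 were higher, with log2 fold changes of 1.77, 1.67 and 1.94. Of 19 interferon-list genes tested, 4 were lower in Klrb1c-positive cells, among them Ifit1, Ifit3 and Gbp2, with a list median of -0.07. All 48 genes with the lowest adjusted p (12 in each direction of both contrasts) kept their direction when each library was left out in turn, whereas the number of genes passing fell to 280 without the adult control and to 354 without 48 h, from 565.

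**Figure D5:**
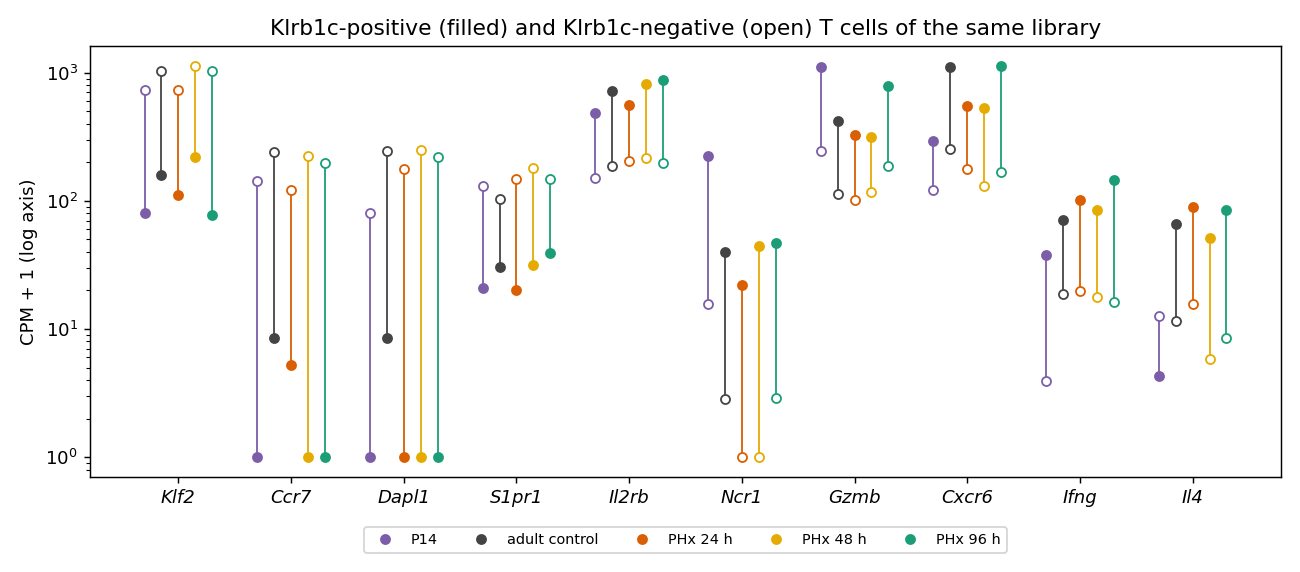
CPM + 1 on a log axis in Klrb1c-positive (filled) and Klrb1c-negative (open) T cells of the same library, joined by a line, for 10 genes. Klf2, Ccr7, Dapl1 and S1pr1 are lower in the positive cells of all 5 libraries; Il4 is higher in the positive cells of the 4 adult libraries and lower in those of P14.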

How the data were processed

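Single-cell libraries of liver cells were made with a 10x kit and sequenced on an Illumina NovaSeq, per the labels' protocols. Each deposited matrix holds UMI counts as whole numbers for 31053 genes and all barcodes, empty droplets included. Software version 3.0.2 is named per the file headers. bcl2fastq 2.17.1.14, Cell Ranger, Seurat 3.1 and the build mm10 are named per the submitters' processing notes, without roles.

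The members and lists were chosen with earlier results of these data known. T cells met the rule in the report, and library totals are given there. Free RNA was estimated per library from barcode ranks 20001 to 60000, scaled by 16 hepatocyte genes and subtracted. CPM of library levels left out 13 mitochondrial genes, and CPM of the subset contrasts kept them in the total. Ratios used a pseudocount of 10 CPM. A gene was measured when its higher library had at least 50 CPM, 20 UMIs and under 25% free RNA. Poisson and Clopper-Pearson intervals (95%) cover counting error only.

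Named genes were the 8 highest and 8 lowest ratios per comparison, genes of 30 lists (the most abundant up to 4, and those past 2-fold), and the 12 lowest adjusted p per direction of each subset contrast. Genes left after setting aside those with over 25% of UMIs in 1 cell, and other list genes passing a subset contrast, were chosen after their values were seen. Subset contrasts used edgeR 4.0.16 (filterByExpr, threshold 0.05, at least 10 cells per subset), leaving out Cd3 and subset genes. The library pairs the subsets, since both are made of cells of the same library, with no cell in both. On simulated counts with 200 genes changed 4-fold, 92.0% were recovered for Cd8a against Cd4 (6513 genes) and 93.5% for Klrb1c (8377 genes), with 9 and 4 false calls. The simulation gave every gene the same dispersion and every library the same mean profile, so it does not measure recovery in these data. Nothing in the labels says whether a library pools animals. With the library as a block, p-values rest on how much the difference between subsets varied from library to library. Python 3.11.15 and R 4.3.3 were used. The alternatives are given in the closing section. Some genes are not reported here.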

Additional observations from a re-analysis of the deposited data

Results flagged for a closer look

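In the contrast of Klrb1c-positive with Klrb1c-negative T cells, 3 genes that passed the test (Il4, Tnfsf8 and Ifit3) went one way in all 4 adult libraries and the other way in P14, on 1 to 8 UMIs. A 4th, Hbb-bt, differed in P14 only by the total UMIs of each side. P14 has 1 library of 52 cells. This difference between P14 and the adults was not tested. Il4 was at 3.33 CPM (1 UMI) in the Klrb1c-positive cells of P14 and 11.7 CPM (4 UMIs) in the negative ones, and higher in the positive cells of the adults. Tnfsf8, a ligand of the TNF family, was at 26.6 and 17.6 CPM in P14 (8 and 6 UMIs), and lower in the positive cells of the adults. The interferon-induced gene Ifit3 was at 16.6 and 8.78 CPM in P14 (5 and 3 UMIs), and the haemoglobin gene Hbb-bt at 3.33 and 2.93 CPM (1 UMI on each side, which shows no direction), and both were lower in the positive cells of the adults. No group had enough libraries to look for 1 that stands apart.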

How the results depend on the processing

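All choices here except 5 added after seeing the data (list counts over every gene with a UMI, cells with hepatocyte RNA above free RNA, Klrb1c-negative cells only for ratios and for Cd8a against Cd4, and genes with over 25% of UMIs in 1 cell) were planned. Of 2254 ratios of named genes under alternatives, 2005 kept their direction within counting error, 214 moved and 35 turned. Of 659 fold changes of the 48 subset genes, 652 kept direction and side, and 7 missed the threshold, all without the library block.

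Requiring all 3 Cd3 genes left 512, 164 and 324 T cells in the control, 24 h and 48 h. Without thinning, in the order control, 24 h, 48 h and 96 h, Cd4 was in 18.1%, 10.4%, 17.02% and 18.4%, Cd8a in 25.8%, 21.8%, 34.0% and 43.4% (P14 40.4%), and Klrb1c in 31.5%, 45.0%, 29.6% and 11.8% (P14 48.1%). Thinned to 1000 UMIs, Cd4 was in 0% (P14), 2.41% (control), 4.19% (48 h) and 3.95% (96 h), Cd8a in 8.78% (control) and 9.42% (48 h), and Klrb1c in 10.2% (control), 18.96% (24 h) and 12.04% (48 h).

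Genes past 2-fold numbered 59, 29, 47 and 230 at 24 h, 48 h, 96 h and in P14. They became 317, 435, 241 and 476 with free RNA neither subtracted nor used as a filter, which lets in genes rich in free RNA. Of these, 62, 47, 37 and 188 were higher, so lower genes outnumbered higher ones also at 24 h, 48 h and in P14, where the reverse had held. The counts past 2-fold became 18, 11, 16 and 77 at 200 CPM or more. With no limit on CPM or UMIs, but the limit on free RNA kept, they were 131, 59, 91 and 582. With a pseudocount of 50 CPM they were 19 (all higher), 14 and 116 at 24 h, 96 h and in P14. Setting aside genes with over 25% of UMIs in 1 cell gave 38, 9 and 134 at 24 h, 48 h and in P14. Leaving out cells with markers of another class gave 15 at 48 h, and a split of 23 higher and 20 lower at 24 h. Klrb1c-negative cells gave 23 at 96 h, and 45 higher and 43 lower at 24 h. TMM scaling gave 33 higher and 1 lower at 48 h.

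For Cd8a against Cd4, 322 genes became 198 with DESeq2, 501 with no filter, 54 without the library block (no replicate block), 68 with cells thinned to 2000 UMIs and 136 in Klrb1c-negative cells. Leaving out 1 library gave 134 to 288. For Klrb1c, 565 genes became 861 with no filter, 257 without the library block and 237 with thinned cells, and 280 to 685 leaving out 1 library. DESeq2 gave 468.

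Ratios that turned, by setting, were as follows. With all 3 Cd3 genes: S100a8 -3.87 and S100a9 -4.54 in P14, Hba-a1 -5.77, Hba-a2 -5.23, Hbb-bs -7.82 and Hbb-bt -5.53 at 24 h, and -1.02, -0.79, -1.19 and -4.28 for these at 96 h. Without cells with hepatocyte RNA: Hba-a1 -4.62, Hba-a2 -4.33, Hbb-bs -4.05 and Hbb-bt -3.83 at 24 h, and AY036118 0.33 in P14 (0.56 without subtraction of free RNA). Without cells with markers of another class: Fabp4 -0.19 and S100a9 -0.091 in P14, H2-Ab1 -0.23, H2-Eb1 -0.058, Ifitm1 -0.52, Retnlg -0.019, S100a9 -0.091 and Wfdc17 -0.31 at 24 h, Retnlg -0.019 and S100a9 -0.091 at 48 h, and S100a9 0.22 at 96 h. In Klrb1c-negative cells: AY036118 0.19, Fabp4 -0.23, Ptprb -0.25 and Trdc -0.73 in P14, and Lyz2 -0.093, Retnlg -2.64, S100a8 -4.26 and S100a9 -4.93 at 24 h. The cause was not tested.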

Other observations

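Some list genes outside the comparisons above also differed between P14 and the control. Of 10 glycolysis genes 2 were higher in P14 and none lower, with a median log2 ratio of 0.68, against 3.77% higher and a median of 0.01 over all genes with a UMI. Of 7 measured ones 5 passed the filter in P14 only, and neither of the other 2 was past 2-fold. Of the list's P14 UMIs, 65.6% lay in 10 of the 52 cells. The higher ones, Tpi1 and Pgam1, both glycolytic enzymes, were at 191 and 233 CPM in P14 against 66.3 and 109 in the control. Genes induced by glucocorticoids had 2 of 10 members lower in P14 (Tsc22d3, 299 to 101 CPM, and Txnip, 577 to 281 CPM), against 2.1% lower over all genes with a UMI.

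The cells with 3 or more mitosis genes were deeper than the other T cells, with medians of 15080 (96 h) to 19421 (24 h) UMIs. At full depth 3 or more replication genes were detected in 25 of 52 P14 T cells, 94 of 581 in the control, 47 of 211 at 24 h, 100 of 382 at 48 h and 41 of 152 at 96 h. Detection rises with depth, which differed between libraries, so no order of the libraries is read from these counts.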
